A study of Rattus norvegicus with 12 samples.

Results

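Hepcidin and 7 other genes of iron handling were followed in primary rat hepatocytes treated with a glucocorticoid. The genes were chosen by name: Hamp (hepcidin), Tf (transferrin), Tfrc and Tfr2 (the transferrin receptors), Slc40a1 (ferroportin), Fth1 (ferritin heavy chain), Slc11a2 (divalent metal transporter) and Bmp6 (a bone morphogenetic protein). They have 12 of the 41012 probes of the array. All 12 probes passed the filter on dim probes, as did 30977 probes in all.

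Hepatocytes came from Sprague-Dawley rats aged 11 weeks and were cultured for 24 h with serum and for a further 24 h without it. They then received 100 nM dexamethasone (written "nm" in the labels), a synthetic glucocorticoid, or 0.01% ethanol as vehicle for 6 h, giving male vehicle, male dexamethasone, female vehicle and female dexamethasone groups of 3 arrays each. The sex is that of the titles, since a separate sex label reads male for all 12 samples. Obp3, a male-enriched gene of rat liver, was well above background on every array titled male and on none titled female. The labels do not say whether replicates came from separate animals or cultures, so the p-values reflect only how much these samples varied, and that variation may be technical.

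Hepcidin is a small peptide hormone made mainly by hepatocytes. It binds ferroportin, the iron exporter, and causes its loss from the cell surface, which lowers the release of iron into plasma. Hamp transcription is driven by BMP and SMAD signalling, which reports iron stores, and by interleukin 6 acting through STAT3, which reports inflammation. Iron-loaded transferrin is sensed by the transferrin receptors, and ferritin stores iron inside the cell.

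The 250 bases before the annotated start of Hamp (RefSeq, GRCr8, minus strand, chr1:95300272-95300521) are shown because BMP and STAT elements are the known routes of control. Capitals mark GGCGCC, the core of a BMP response element, at bases -129 to -124 from the start, and TTCNNNGAA, a STAT motif, at bases -117 to -109.
Hamp upstream: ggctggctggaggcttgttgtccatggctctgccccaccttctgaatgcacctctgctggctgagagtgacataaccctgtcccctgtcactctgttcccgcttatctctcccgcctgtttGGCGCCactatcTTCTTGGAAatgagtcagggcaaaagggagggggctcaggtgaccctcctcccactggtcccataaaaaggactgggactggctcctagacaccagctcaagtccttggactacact

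Both strands were searched in the same 250-base window of 33469 RefSeq promoters. GGCGCC was present in 8.69% of them and TTCNNNGAA in 7.67%. The full palindromic glucocorticoid response element was present in 0.012% and a single AGAACA hexamer of it in 17.5%. Of the 8 genes, 7 had a promoter in the table, and the window of Tfrc also held GGCGCC, at bases -118 to -113. Hamp was the one gene of the 7 with a TTCNNNGAA match, and none of the 7 windows held AGAACA or the full element. The window is short, and a match is a match of letters only.

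The 4 arrays of slide 1, all 3 of male vehicle plus replicate 1 of male dexamethasone, had 45.7% to 66.5% of probes well above background, against 72.4% to 80.4% on the others. Replicates correlated at 0.971 or above, with a median SD of 0.388 log2 units in male vehicle and 0.163 to 0.249 in the other groups. Female vehicle replicate 2 carried a dark patch of 1015 spots, 2.34% of the array, with a median deficit of -3.21 log2 units. The patch holds the spots of 1 Tfrc probe and 1 Slc11a2 probe, whose results are therefore given with and without it. Fkbp5, a glucocorticoid target, rose by 2.93 ± 0.18 (SE) log2 units in males and by 2.84 ± 0.18 in females (adjusted p = 4.5e-05 and 5.3e-05, limma). All 10 hepatocyte markers examined were well above background on every array.

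Hamp rose with dexamethasone in both sexes. Levels are log2 processed signals relative to the 75th percentile of the same array. The male vehicle arrays read 6.79, 6.46 and 6.13, and the male dexamethasone arrays 7.89, 7.95 and 7.59. The female vehicle arrays read 6.25, 6.23 and 6.05, and the female dexamethasone arrays 7.87, 7.76 and 7.62. Every treated array lay above every vehicle array, across sexes as well as within them.

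In males the mean went from 6.46 ± 0.33 (SD, n = 3) to 7.81 ± 0.19 (n = 3), a difference of 1.35 ± 0.19 (SE) log2 units or 2.55-fold (adjusted p = 0.0025, limma, all probes). In females it went from 6.18 ± 0.11 (n = 3) to 7.75 ± 0.12 (n = 3), a difference of 1.57 ± 0.19 log2 units or 2.97-fold (adjusted p = 0.0014, limma). Both differences are several times the spread between replicates. Within the single slide that holds both male groups (1 dexamethasone and 3 vehicle arrays) the difference was 1.43. Within the one that holds both female groups (3 dexamethasone arrays and 1 vehicle array) it was 1.70. The female call held under each of 25 alternative settings, at an adjusted p of 0.0385 or below. The male call held under 24 of 25. With only the 6 male arrays in the limma model, the male difference of 1.35 had an SE of 0.25 and an adjusted p of 0.057.

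The responses of Hamp did not differ measurably between the sexes: the female response exceeded the male one by 0.22 ± 0.26 (SE) log2 units (adjusted p = 0.82, limma). Females minus males gave -0.29 ± 0.19 in vehicle (adjusted p = 0.33) and -0.06 ± 0.19 in dexamethasone (adjusted p = 0.91). The Hamp spot was read from the low-gain scan on all 12 arrays and was saturated on none.

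Hamp was the only one of the 8 genes to pass the threshold of an adjusted p of 0.05 in males, where 10.2% of all probes passed, 5.35% upwards and 4.85% downwards. It was also the only one in females, where 3.82% passed, 2.80% upwards and 1.01% downwards. The median difference over the 8 genes, each by its brightest probe, was -0.0642 log2 units in males, against -0.0591 over all probes, and 0.174 in females, against -0.0227. The arrays of the treatment groups did not overlap for 2 of the 8 genes in males (Hamp and Slc40a1), against 25.6% of all probes. In females they did not overlap for Hamp alone, against 33.4%. None of the 8 had a response that differed between the sexes, in a test that called 0.107% of probes (0.0742% upwards and 0.0323% downwards), and none had an unadjusted p under 0.05 there. The split of all calls into higher and lower depended on the scaling: of those called in males 52.5% were higher, against 67.2% after quantile normalization and 33.1% after scaling to the array median. In females the shares were 73.4%, 67.9% and 62.5%.

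**Figure D1:**
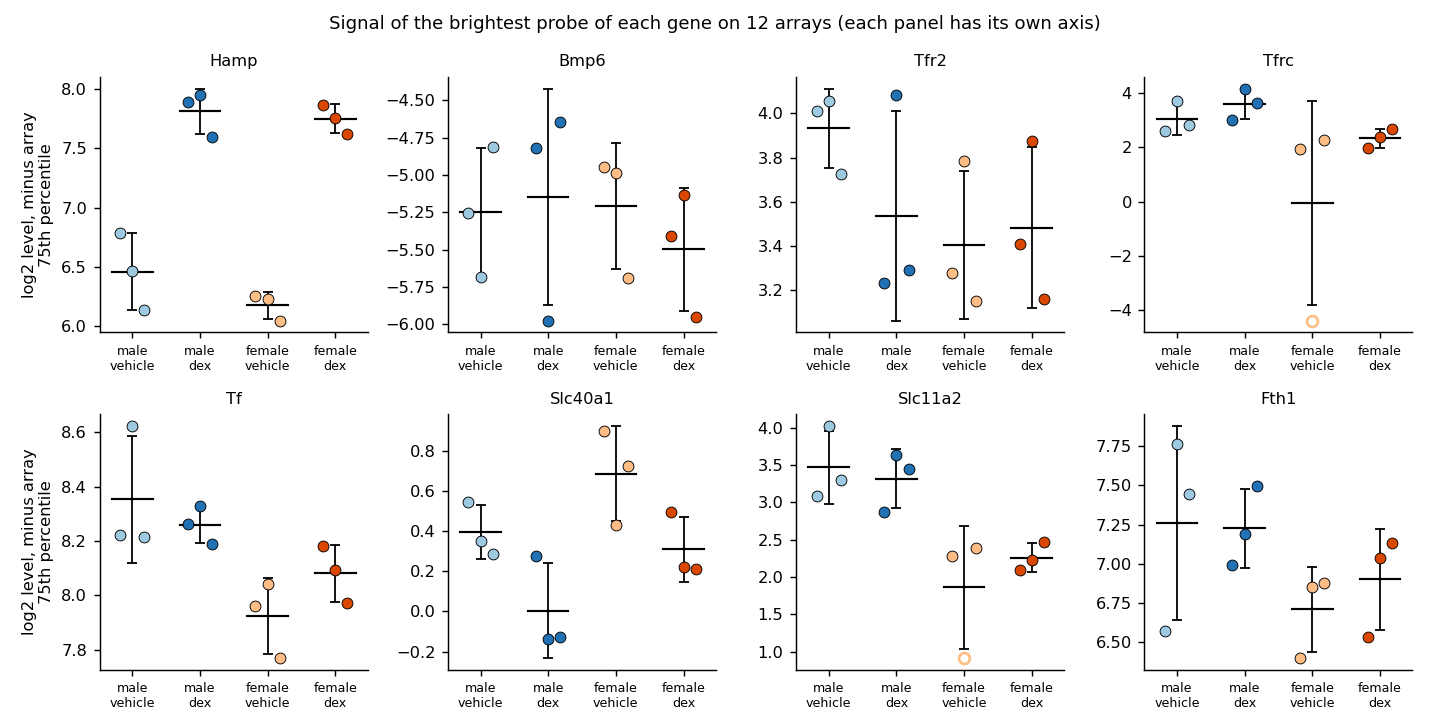
Log2 level (signal minus the array's 75th percentile) of the brightest probe of each gene on the 12 arrays; "dex" is dexamethasone, points are arrays, lines are group means, bars are SDs over 3 arrays, and open points lie in the dark patch. The 6 treated Hamp arrays sit between 7.59 and 7.95, above the 6 vehicle arrays at 6.05 to 6.79, while the treatment groups overlap or nearly touch for the other genes.

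By the root mean square difference between mean-centred profiles over the 12 arrays, among 8327 genes well above background on all of them, the gene nearest to Hamp was Enc1, at 0.110 log2 units. Vamp5 at 0.158 and Nedd4l at 0.215 followed. Hamp itself varied by 0.757 around its mean. The mean level of Enc1 was 4.33 in male vehicle and 5.72 in male dexamethasone, and 4.06 and 5.52 in the female groups.

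Bmp6, a ligand that drives Hamp and is made mainly by liver endothelial cells, was close to background. Its probe was well above background on no male vehicle array, and no fold is given. The levels were -5.25, -5.68 and -4.82 in male vehicle, -4.82, -5.98 and -4.64 in male dexamethasone, -4.94, -4.99 and -5.69 in female vehicle and -5.41, -5.14 and -5.95 in female dexamethasone. All 4 groups overlapped. In females, whose arrays were all above background, the difference was -0.29 ± 0.38 (SE, adjusted p = 0.83, limma).

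Tfr2, the receptor that hepatocytes use to sense transferrin iron, was clearly measured and did not pass the threshold. The 3 male vehicle arrays read 4.01, 4.06 and 3.73 and the male dexamethasone arrays 3.23, 4.09 and 3.29. The female vehicle arrays read 3.28, 3.79 and 3.15 and the female dexamethasone arrays 3.41, 3.88 and 3.16. Replicate 2 was the highest array in each group, and the treatment groups overlapped. The male difference was -0.40 ± 0.27 (SE, adjusted p = 0.39, limma) and the female one 0.08 ± 0.27 (adjusted p = 0.96).

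Tfrc, which takes up transferrin-bound iron and whose message is stabilised when iron is low, has 3 probes on chromosome 11. The brightest (chr11:70034217-70034276) read 2.61, 3.71 and 2.81 in male vehicle and 3.00, 4.13 and 3.64 in male dexamethasone. It read 1.95, -4.39 and 2.25 in female vehicle and 1.96, 2.37 and 2.65 in female dexamethasone, where the -4.39 is the spot in the dark patch. Every female array lay below every male array except female dexamethasone replicate 3, which exceeded male vehicle replicate 1. The female response was 2.39 ± 1.36 (SE, adjusted p = 0.45, limma) with the patch spot and 0.23 ± 0.39 (adjusted p = 0.90) without it.

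The probe of Tfrc printed as 10 spots per array (chr11:70034950-70035009) was free of the patch. It gave 0.62 ± 0.40 (SE) in males and 0.15 ± 0.40 in females (adjusted p = 0.35 and 0.94, limma). The dimmest probe was well above background on 1 of 3 male vehicle arrays and gave -0.24 ± 0.74 and 0.11 ± 0.74. The 3 probes thus gave no called response, and in males they differed in sign.

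Tf, the plasma carrier of iron and a major secreted product of hepatocytes, was bright in all groups and stayed within a narrow range, from 7.77 in female vehicle replicate 3 to 8.62 in male vehicle replicate 2. The male difference with dexamethasone was -0.09 ± 0.16 (SE) and the female one 0.16 ± 0.16 (adjusted p = 0.75 and 0.74, limma). Its spot was read from the low-gain scan on all 12 arrays.

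Slc40a1, the ferroportin that hepcidin removes from the membrane, was lower on average in treated cells of both sexes without passing the threshold. Male vehicle arrays read 0.55, 0.35 and 0.29 and male dexamethasone arrays 0.28, -0.14 and -0.13. Female vehicle arrays read 0.90, 0.43 and 0.73 and female dexamethasone arrays 0.50, 0.22 and 0.21. The male groups did not overlap, by a margin of hundredths, and the female groups did. Taken by replicate number, dexamethasone minus vehicle was -0.27, -0.49 and -0.41 in males and -0.40, -0.21 and -0.51 in females. The differences were -0.39 ± 0.18 (SE) and -0.38 ± 0.18 (adjusted p = 0.19 and 0.34, limma, and 0.082 and 0.14 with the replicate block). With array weights the female difference was -0.50 (adjusted p = 0.022, limma), the only 1 of 25 alternatives past the threshold. That setting called 5720 of 30977 probes in females, against 1182 in the main fit. Over the 25 the female difference ran from -0.50 to -0.17, with an adjusted p of up to 0.85.

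Fth1, the ferritin subunit that oxidises iron for storage, has 2 probes, both on chromosome 1 of rn3 but at distant positions, chr1:212590285-212590344 and chr1:24189021-24189080. They are shown because they may not tell copies of ferritin heavy chain apart, which was not tested. Over an overlap of 55 bases they share 52 and differ at 3, in capitals.
Fth1 probe 1: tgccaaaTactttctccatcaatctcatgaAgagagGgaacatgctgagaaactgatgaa
Fth1 probe 2: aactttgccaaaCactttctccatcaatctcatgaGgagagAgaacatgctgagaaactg
Values of either probe are therefore uncertain as to their source. Neither passed: probe 1 gave -0.04 ± 0.30 (SE) in males and 0.19 ± 0.30 in females, and probe 2 gave -0.39 ± 0.28 and 0.14 ± 0.28 (adjusted p from 0.41 to 0.95, limma).

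Slc11a2 moves ferrous iron out of endosomes and across the membrane. Neither of its 2 probes changed with dexamethasone by the threshold. Probe 1 gave -0.15 ± 0.39 (SE) in males and 0.40 ± 0.39 in females, the latter -0.07 ± 0.30 without the patch spot. Probe 2 gave 0.22 ± 0.20 and -0.06 ± 0.20 (adjusted p from 0.50 to 0.97 over all of these, limma).

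**Figure D2:**
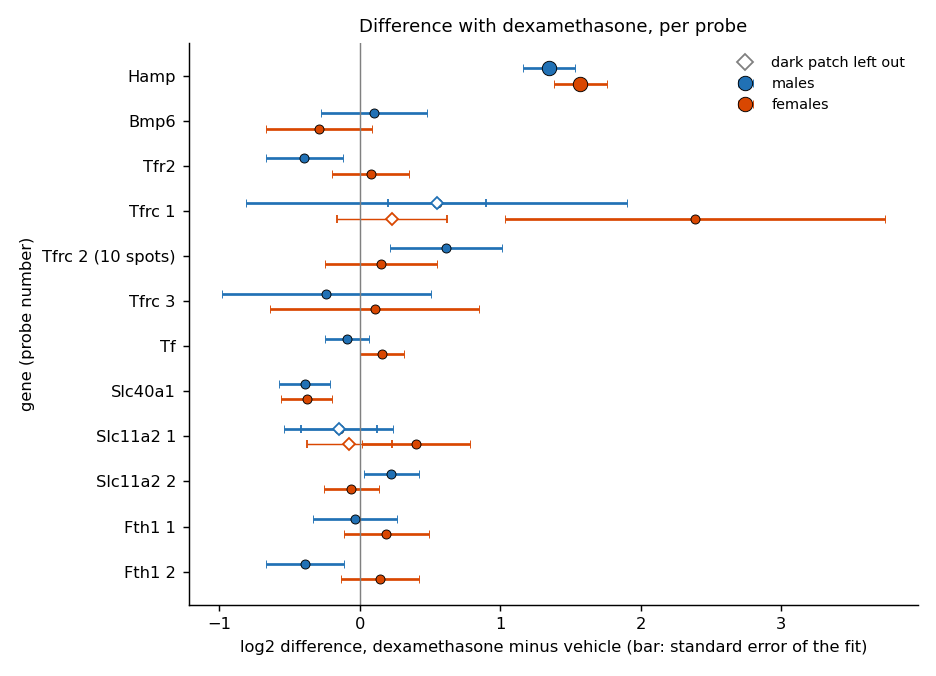
Log2 difference, dexamethasone minus vehicle, for each of the 12 probes in males and females; bars are standard errors of the limma fit, larger circles have an adjusted p under 0.05, and open diamonds leave out the dark patch. Hamp at 1.35 and 1.57 is the only gene with larger circles; the female value of Tfrc probe 1 moved from 2.39 to 0.23 without the patch.

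The genes known to control hepcidin were examined as a list of 28, of which 25 were measured. In males 4 were called higher and 2 lower, against 10.2% of all probes, and in females 2 higher and 2 lower, against 3.82%. The 2 lower calls were Id3 and Il6 in each sex, and that of Il6 is not evidence of a fall, for the reason given below. The list medians were -0.0743 and -0.125, against -0.0591 and -0.0227 over all probes. The list was drawn up with earlier results of these data known. Il6r, the ligand-binding chain of the interleukin 6 receptor, read 0.34, 0.97 and -0.52 in male vehicle and 3.09, 3.50 and 3.00 in male dexamethasone. It read -0.12, -2.26 and -0.27 in female vehicle, where -2.26 lies in the dark patch, and 1.82, 2.30 and 2.10 in female dexamethasone. All treated arrays lay above all vehicle arrays.

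The rise of Il6r was 2.93 ± 0.52 (SE) log2 units in males (adjusted p = 0.0082, limma) and 2.96 ± 0.52 in females (adjusted p = 0.013), the latter 2.27 without the patch spot (adjusted p = 0.0096). Il6st, the signalling chain gp130, rose by 1.82 ± 0.29 in males (adjusted p = 0.0053) and 1.42 ± 0.29 in females (adjusted p = 0.026), and its treated arrays, at 2.55 to 3.77, lay above all vehicle arrays, at 1.14 to 1.82. These are the receptor genes of the STAT3 route. Stat3 itself rose by 0.77 ± 0.20 in males (adjusted p = 0.034), a call that held in 14 of 25 alternatives, and differed by 0.53 ± 0.20 in females (adjusted p = 0.18). Socs3, a feedback target of STAT3, differed by -0.48 ± 0.28 in males and 0.02 ± 0.28 in females (adjusted p = 0.31 and 0.99).

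With slide as a fixed block, the adjusted p of the 2 receptor genes rose to 0.084 to 0.22 while their differences remained at 1.59 to 2.83. The Il6 probe was called lower in both sexes, but was well above background on no male vehicle array and on 1 array of each dexamethasone group. No fold is given for it in males. In females, where it was above background on all 3 vehicle arrays, the fitted difference was -2.07 ± 0.28 (SE) log2 units (adjusted p = 0.0028, limma). Over 24 alternatives it ran from -2.16 to -0.49, with the call held in 22. The probe passed the filter only through female vehicle, its brightest group. The filter thus favoured a fall, and neither the call nor its adjusted p is evidence of one.

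Of the BMP target genes, Id3 was called lower in both sexes and Id1 higher in males. Id3, an inhibitor of DNA binding, fell from 3.53, 3.48 and 3.08 to 2.33, 1.79 and 2.37 in males, and from 3.51, 3.11 and 3.19 to 2.29, 2.02 and 2.29 in females. All treated arrays lay below all vehicle arrays. The differences were -1.20 ± 0.21 (SE, adjusted p = 0.0069, limma) and -1.07 ± 0.21 (adjusted p = 0.018), and the calls held in 22 and 19 of 25 alternatives. Id1 rose in males by 1.40 ± 0.37 (adjusted p = 0.037), a call that held in 17 of 25, and differed by 0.31 ± 0.37 in females (adjusted p = 0.80). The difference of these responses was -1.10 ± 0.52 and did not pass (adjusted p = 0.45). Id2 differed by -0.73 ± 0.21 in males (adjusted p = 0.051) and -0.58 ± 0.21 in females (adjusted p = 0.17). It was not called, although its treatment groups did not overlap in either sex.

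Smad7, the inhibitory SMAD that restrains Hamp, differed by 0.24 ± 0.49 (SE) in males and -0.18 ± 0.49 in females, and Smad6 by -0.51 ± 0.27 and -0.62 ± 0.27 (adjusted p from 0.25 to 0.94, limma). Tmprss6, the protease that cuts hemojuvelin and lowers hepcidin, differed by -0.32 ± 0.25 and 0.17 ± 0.25 (adjusted p = 0.44 and 0.86). Hfe, which pairs with the transferrin receptors, differed by 0.19 ± 0.17 and -0.10 ± 0.17 (adjusted p = 0.51 and 0.89).

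**Figure D3:**
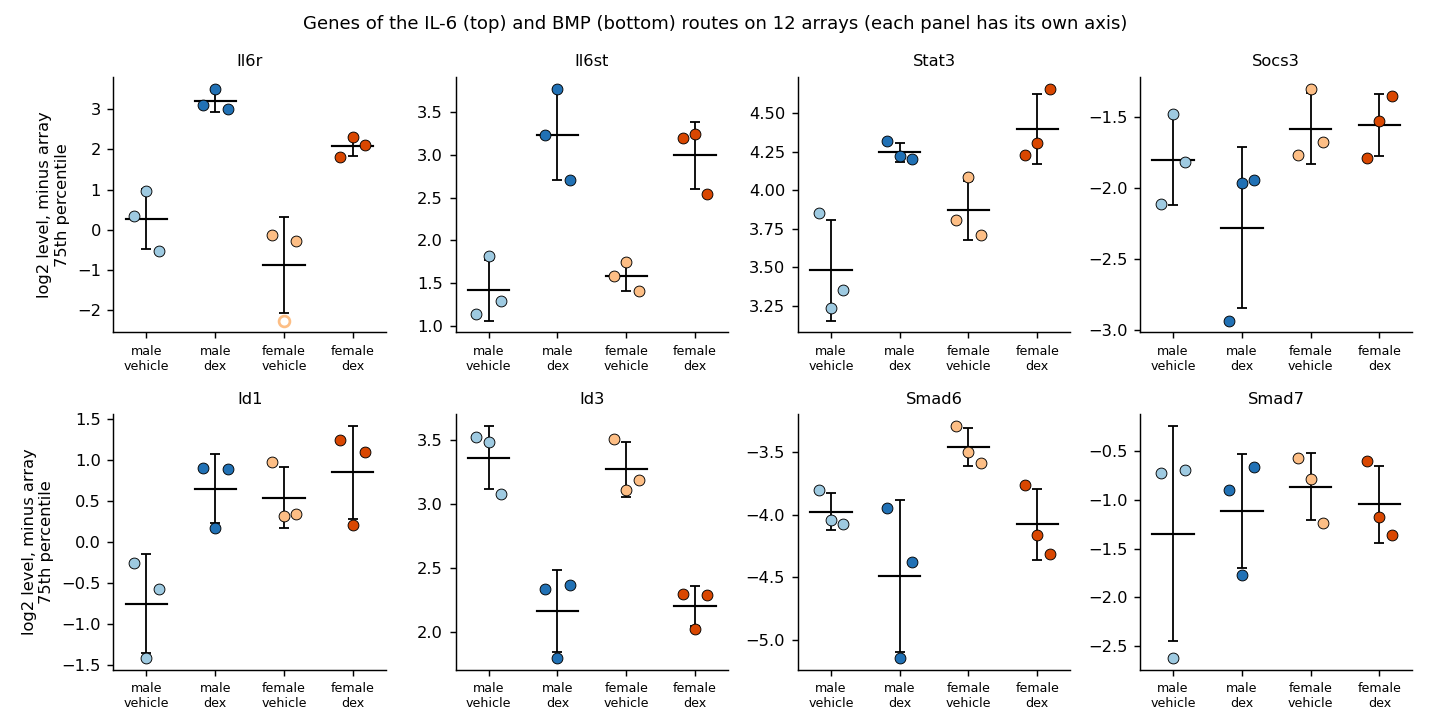
Log2 level (signal minus the array's 75th percentile) of 4 genes of the interleukin 6 route (top) and 4 genes of the BMP route (bottom) on the 12 arrays; "dex" is dexamethasone, lines and bars are group means and SDs over 3 arrays, and the open Il6r point lies in the dark patch. Il6r and Il6st are higher and Id3 lower on every treated array, while Socs3 and Smad7 overlap between treatments.

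Of 26 measured genes for transport, storage and use of iron and heme, none was called higher and 2 were called lower in males. Over all probes 5.35% were called higher and 4.85% lower there. None of the 26 was called in females, against 3.82% of all probes. Their medians were -0.0606 and 0.139, against -0.0591 and -0.0227 over all probes. Ftl1, the ferritin light chain, fell by 0.81 ± 0.23 (SE) log2 units in males (adjusted p = 0.046, limma), a call that held under 10 of 25 alternatives. In females the smallest p was that of Ncoa4, the receptor for ferritin turnover, at 0.44 ± 0.15 (adjusted p = 0.16).

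Of the 10 iron-sensing and hypoxia genes, none was called in males or in females, against 10.2% and 3.82% of all probes. At an unadjusted p under 0.05 (limma) there were 3 in males and 1 in females. Over all 30977 probes there were 8376 and 5165. The smallest p in males was that of Egln3, a prolyl hydroxylase, at -0.68 ± 0.20 (SE, adjusted p = 0.059). In females it was that of Aco1, iron regulatory protein 1, at 0.62 ± 0.23 (adjusted p = 0.19). The list medians were 0.169 and 0.114, against -0.0591 and -0.0227 over all probes. In the test of the difference between the responses, none of the genes of the 3 lists was called, against 0.107% of all probes. At an unadjusted p under 0.05 there were 2, both of iron and heme handling, against 3668 of 30977 probes. The smallest p was that of Hpx, hemopexin, at 0.72 ± 0.26 (adjusted p = 0.30, limma).

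In vehicle, 1 of the 8 genes differed between the sexes at the threshold, against 14.0% of all probes (6.25% higher and 7.73% lower in females). That share is close to the background. No slide held both sexes of the same treatment. The male vehicle arrays were all on slide 1 and the female vehicle arrays on slides 2 and 3. Differences between the sexes in either treatment cannot be told apart from differences between slides. The median over the 8 genes was -0.478 log2 units, female minus male, against -0.0422 over all probes. The arrays of the sexes did not overlap for 3 genes (Tf, Tfrc and Slc11a2), against 31.4% of probes. Of the calls over all probes, 44.7% were higher in females, against 63.6% after quantile normalization, which moved the median of all probes to 0.103.

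The gene was Slc11a2, by probe 1 (chr7:139171255-139171314). It read 3.08, 4.02 and 3.30 in male vehicle and 2.28, 0.91 and 2.39 in female vehicle, where 0.91 lies in the dark patch. In dexamethasone it read 2.87, 3.63 and 3.44 in males and 2.09, 2.22 and 2.46 in females. All female arrays lay below all male arrays, with or without the patch spot. The difference in vehicle was -1.61 ± 0.39 (SE, adjusted p = 0.022, limma) and -1.13 ± 0.30 (adjusted p = 0.033) without the patch.

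That call was lost, with the same sign, in 5 of 25 alternatives. The adjusted p was 0.064 without male vehicle replicate 2, where the difference was -1.33, and 0.0504 without female vehicle replicate 2, where it was -1.13. It was 0.14 with slide as a fixed block, 0.082 with array weights and 0.10 with only the groups compared. The adjusted p over the 25 ran from 0.0087 to 0.14.

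Probe 2 of Slc11a2 (chr7:139166558-139166617), whose target the array file describes as a splice variant of the C-terminal exon, had the opposite sign. It read 1.74, 1.17 and 1.06 in male vehicle and 1.74, 2.07 and 1.79 in female vehicle, a difference of 0.55 ± 0.20 (SE, adjusted p = 0.087, limma). In dexamethasone it was 0.26 ± 0.20 (adjusted p = 0.52). Probe 1 minus probe 2 on the same array, a quantity that one scaling factor per array cannot move, was 1.34, 2.85 and 2.24 in male vehicle and 1.34, 1.99 and 1.98 in male dexamethasone. It was 0.54, -1.16 and 0.59 in female vehicle, where -1.16 rests on the patch spot, and 0.42, 0.24 and 0.69 in female dexamethasone. The 6 male arrays did not overlap with the 6 female arrays. This quantity was chosen after its values were seen and was given no test.

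**Figure D4:**
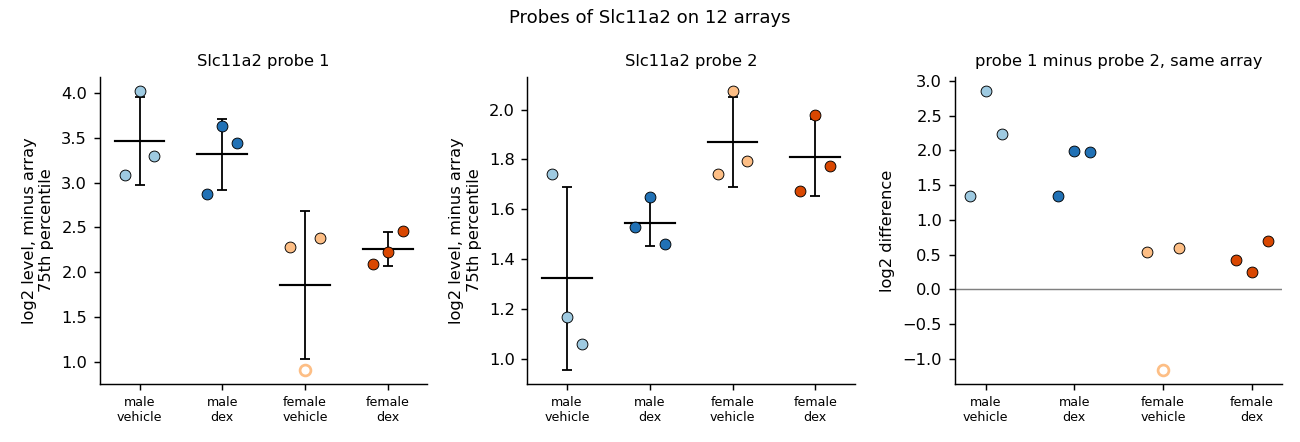
Log2 levels of both Slc11a2 probes and their difference on each of the 12 arrays; "dex" is dexamethasone, lines and bars are group means and SDs over 3 arrays, and the open points rest on the spot in the dark patch. Probe 1 is lower and probe 2 on average higher in females, and the difference between the probes is 1.34 or more on the male arrays and 0.69 or less on the female arrays.

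In dexamethasone, probe 1 of Slc11a2 differed by -1.06 ± 0.39 (SE) between the sexes, without passing (adjusted p = 0.17, limma, and 0.067 without the patch). None of the 8 genes was called there, against 2.99% of all probes (1.23% higher and 1.77% lower in females). At an unadjusted p under 0.05 there was 1, against 5741 of 30977 probes. The arrays of the sexes did not overlap for Tf, Tfrc and Slc11a2, against 32.2% of probes, and the median over the 8 genes was -0.252, against 0.0227. The genes nearest in profile to probe 1 over the 12 arrays, the patch spot included, were Sts, Nfib and Pxmp2, at 0.314, 0.323 and 0.326 log2 units.

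Other genes were lower on average in female cells without passing. Tf differed by -0.43 ± 0.16 (SE) in vehicle (adjusted p = 0.093, limma) and -0.18 ± 0.16 in dexamethasone (adjusted p = 0.60). Tfrc probe 1 gave -3.10 ± 1.36 in vehicle with the patch spot and -0.94 ± 0.39 without it (adjusted p = 0.15 and 0.13), and the 10-spot probe gave -0.61 ± 0.40 (adjusted p = 0.33). In dexamethasone these probes gave -1.26 (adjusted p = 0.68 with the patch and 0.084 without) and -1.07 ± 0.40 (adjusted p = 0.18). All 3 probes of Tfrc had a negative sign in both treatments, and none passed.

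Fth1 probe 2 read 6.40, 6.57 and 6.69 in male vehicle and 5.24, 5.88 and 5.91 in female vehicle, with no overlap. The difference was -0.88 ± 0.28 (SE) and just missed the threshold (adjusted p = 0.059, limma), while probe 1 gave -0.55 ± 0.30 (adjusted p = 0.24). Tfr2 differed by -0.53 ± 0.27 (adjusted p = 0.22) and Slc40a1 by 0.29 ± 0.18 (adjusted p = 0.31). No difference is given for Bmp6, since it was not above background in male vehicle. In dexamethasone the adjusted p of these probes and that of Bmp6 ran from 0.41 to 0.95.

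**Figure D5:**
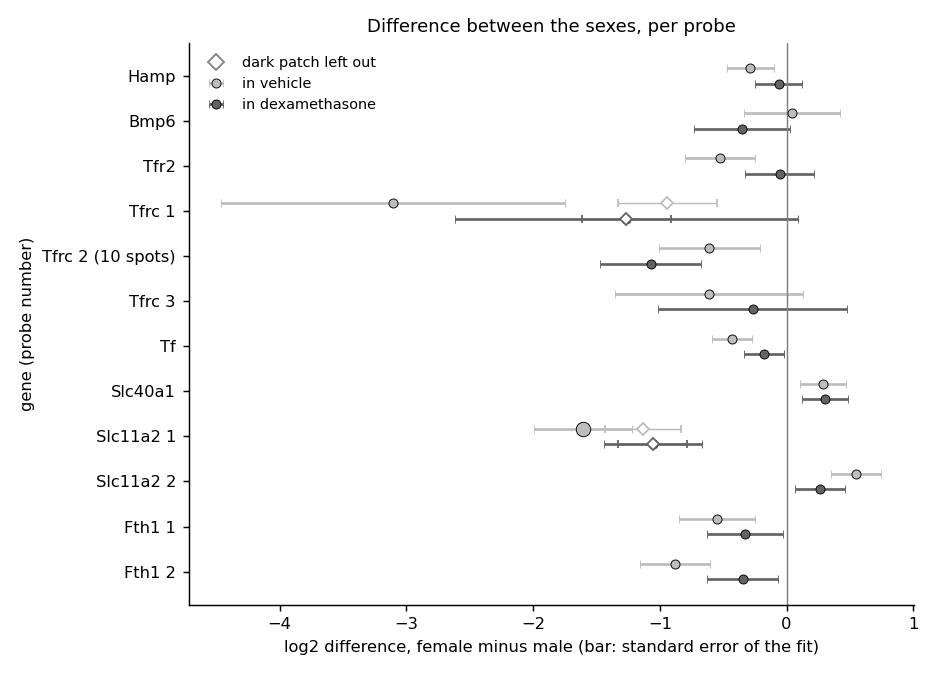
Log2 difference, female minus male, for each of the 12 probes in vehicle and in dexamethasone; bars are standard errors of the limma fit, the larger circle has an adjusted p under 0.05, and open diamonds leave out the dark patch. Hamp lies near 0 in dexamethasone, Tfrc and Fth1 lie below 0 on every probe, and the probes of Slc11a2 lie on opposite sides of 0.

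Among the genes that control hepcidin, 2 of 25 were called higher and none lower in female vehicle cells, a share below the 14.0% of all probes called. Gdf15, a stress-induced cytokine, read 2.34, 1.82 and 1.87 in male vehicle and 3.64, 3.50 and 3.51 in female vehicle, a difference of 1.54 ± 0.35 (SE, adjusted p = 0.018, limma). That call held in 21 of 25 alternatives, and with slide as a fixed block the difference was 0.57 (adjusted p = 0.70). Id1 differed by 1.29 ± 0.37 (adjusted p = 0.040), a call that held in 15 of 25 alternatives. The list median was 0.164. In dexamethasone none was called, against 2.99% of all probes, with 4 at an unadjusted p under 0.05, against 5741 of 30977. The smallest p was that of Bmp2, another endothelial BMP ligand, at -1.90 ± 0.48 (adjusted p = 0.062).

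Of the 26 iron and heme genes, 1 was called higher and 3 lower in female vehicle cells, a share near the 14.0% of all probes called. Ftl1 read 9.63, 9.89 and 9.29 in male vehicle and 8.31, 8.55 and 8.35 in female vehicle, a difference of -1.20 ± 0.23 (SE, adjusted p = 0.0078, limma). The fall was -0.50 after quantile normalization (adjusted p = 0.060) and -0.40 with slide as a fixed block (adjusted p = 0.61). Lcn2, a siderophore-binding protein, fell by 0.84 ± 0.25 (adjusted p = 0.046) and Hpx by 0.72 ± 0.19 (adjusted p = 0.029). The call of Lcn2 held in 10 of 25 alternatives and that of Hpx in 17. After quantile normalization the differences were -0.33 (adjusted p = 0.28) and -0.04 (adjusted p = 0.85). Heph, a ferroxidase, could not be told from background in male vehicle. Under the main scaling it was at least 2.21-fold higher in females (adjusted p = 0.032, limma). This bound sets the female mean against the lowest signal well above background on each male vehicle array, and does not hold under every setting. Over 24 alternatives the fitted difference ran from 0.25 to 1.94 log2 units (adjusted p of up to 0.51), with the call held in 15. In dexamethasone none of this list was called, against 2.99% of all probes, and 3 had an unadjusted p under 0.05, against 5741 of 30977. The smallest p was that of Cybrd1, a ferric reductase, at 1.01 ± 0.33 (adjusted p = 0.13).

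Epas1, the hypoxia-inducible factor HIF-2alpha, was the one gene called among the 10 of the iron-sensing list in vehicle, against 14.0% of all probes. It read -0.46, -0.14 and -0.52 in males and -1.75, -1.30 and -1.82 in females, a difference of -1.25 ± 0.23 (SE, adjusted p = 0.0075, limma). The call held in 24 of 25 alternatives, the exception being slide as a fixed block (-1.42, adjusted p = 0.19). In dexamethasone the difference was -0.75 ± 0.23 (adjusted p = 0.11).

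Signals of some marker genes of other cell types differed between male and female vehicle arrays, which were on different slides. Summed signals of 11 endothelial markers, relative to the array's 75th percentile, ran from 16.3 to 36.0 in female vehicle and from 8.93 to 11.8 in male vehicle. In male vehicle 5 of them (Stab2, Pecam1, Emcn, Tek and Tie1) were above background on no array. Those arrays had only 45.7% to 55.6% of all probes well above background. A lack of detection on them cannot be told apart from that low signal. Of the 10 endothelial markers tested in vehicle, 2 were called higher and 1 lower in females, with a median of 0.373 log2 units. The sums of 11 stellate and fibroblast markers were 8.67 to 14.8 in female and 4.90 to 7.60 in male vehicle, with 5 of 9 called higher, none lower and a median of 2.21. The 10 cholangiocyte markers summed to 15.9 to 29.3 and 4.69 to 15.3, with none of 9 called higher, 1 lower and a median of 0.764.

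The sums of 14 Kupffer cell markers overlapped, at 54.2 to 111 in female and 52.3 to 103 in male vehicle, while 2 of the 14 were called higher in females, none lower, and their median was 0.748. The 8 erythroid markers were dim, with sums of 0.531 to 0.741 and 0.720 to 1.71 and 1 of 6 called lower. The 10 hepatocyte markers summed to 847 to 1190 and 1370 to 1830, with none called higher, 1 lower and a median of -0.434. All these medians stand against -0.0422 over all probes, and the calls against 14.0% of probes (6.25% higher and 7.73% lower).

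With dexamethasone the endothelial sums were 5.55 to 8.36 in males and 9.80 to 22.0 in females. The stellate and fibroblast sums were 2.92 to 6.45 in males and 5.46 to 7.30 in females, so that the female arrays did not overlap with those in vehicle. The median female response of that list was -0.807, with 1 of 9 called lower, against 1.01% of all probes called lower. The median male response was 0.125. None of the 9 was called in the test of the difference between the responses. At an unadjusted p under 0.05 there were 4, against 3668 of 30977 probes. The cholangiocyte sums were 9.04 to 10.8 in males and 10.8 to 16.8 in females, and the Kupffer cell sums 61.8 to 122 and 67.5 to 138. The part of these cells in the differences above was not tested, and in such bulk samples fewer cells of a type cannot be told apart from less RNA per cell.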

How the data were processed

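Agilent Feature Extraction 9.5.3.1 per the file headers (9.5 in the submitters' processing notes) produced the deposited spot intensity, a linear scale with background subtracted and arrays not scaled to each other. The authors' deposited value table held the same intensity values (540216 of 540216 equal). Spots that are not controls and not marked as outliers were averaged per probe as log2 values, minus each array's 75th percentile. Probes entered the test if any group had all 3 of its arrays well above background. Names were updated through a RefSeq table (GRCr8), which named 19816 of 41012 probes; 219 names were refused because the chromosomes differed. A gene is represented by its brightest probe. One limma 3.58.1 model (R 4.3.3) of 4 group means was fitted to all 12 arrays, with eBayes and Benjamini-Hochberg adjustment over all kept probes, two-sided.

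Samples of the same number deviated together within each sex (correlations of 0.270 to 0.459) and between the dexamethasone groups (0.171 to 0.213), but not between the vehicle groups (0.0171 to 0.110), so numbers were taken to pair the former, from the data. Members, lists and tests were chosen with earlier results of these data known. Named list genes are up to 2 called rises and 2 called falls per list and comparison whose arrays do not overlap, or the smallest p where none passes. Hpx, Ftl1 in males, Stat3, Id1 in males, Id2, Socs3, Smad6, Smad7, Tmprss6 and Hfe were added after their values were seen. Of the named list genes, 1 is not reported here. Cyp2c12 was on the list of checks and was not matched to a probe name. On simulated arrays for the male comparison (30739 probes), 36.0% of 100 probes changed 2-fold and 71.0% of 100 changed 4-fold were recovered. No other probe was changed there, whereas 3159 of 30977 were called in the data. The simulated noise was independent, with 1 SD per probe for all groups. These shares are therefore not the recovery rate of the data.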

Additional observations from a re-analysis of the deposited data

Results flagged for a closer look

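For Fth1 probe 2 and for Tmprss6, each of the 3 same-numbered pairs of arrays moved down with dexamethasone in males and up in females. The pairs of Fth1 probe 2 gave -0.52, -0.53 and -0.11 log2 units in males and 0.04, 0.12 and 0.27 in females, and the difference of the responses was 0.53 ± 0.39 (SE, adjusted p = 0.68, limma). The pairs of Tmprss6 gave -0.46, -0.35 and -0.17 in males and 0.34, 0.09 and 0.07 in females, and the difference of the responses was 0.49 ± 0.35 (adjusted p = 0.67). Neither difference passed the threshold. These were picked by their signs from all 12 probes of the 8 genes and the 25, 26 and 10 measured genes of the 3 lists. The share of all probes that move in this way was not computed, so no pattern is read from them.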

How the results depend on the processing

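The 8 genes' differences in 5 comparisons were recomputed under 25 alternatives, 12 of which leave out 1 array, and leaving out the dark patch was chosen after seeing the data. Of 987 alternative values 976 lay on the same side of the threshold; in 57 the sign differed with neither value past it. With only the groups compared, 0 genes were called in males and 0 between the sexes in vehicle. Between the sexes in vehicle, normexp gave 2 calls, beside 14052 of 30977 probes, slide as a random block 2, beside 7240 (at an estimated correlation of -0.115), slide as a fixed block 0, array weights 0, and leaving out 1 array 0 to 2. Leaving out 1 array gave 1 call in each treatment response. Array weights gave 2 calls in females, beside 5720 of 30977 probes, and 1 between the sexes in dexamethasone, beside 5381. Bmp6 was above background on no male vehicle array, and its fitted difference between the sexes in vehicle ran from -0.67 to 1.45 over 24 alternatives. Only the lowest, under normexp, was past the threshold (adjusted p = 0.0081, limma), and is not read as a difference. The cause was not tested. The replicate block changed no call of the 8 genes: Hamp had a difference of 1.35 in males (adjusted p = 0.0040) and 1.57 in females (adjusted p = 0.0035). It moved the count over all probes from 3159 to 4903 in males, from 1182 to 1999 in females, from 927 to 1743 between the sexes in dexamethasone and from 33 to 0 for the difference of the responses. Slide as a fixed block left 574, 309, 36 and 4 calls in these 4 comparisons, and 176 against 4331 between the sexes in vehicle. Within-slide values exist only for the treatment responses. Low signal over background on the male vehicle arrays limits what can be said of dim probes such as those of Bmp6, Il6, Heph and the dim marker genes.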
